A study of Mus musculus with 6 samples.

Results

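The 10 genes described here are Igf2bp1, Igf2bp2, Igf2bp3, Lin28a, Lin28b, Hmga1, Hmga2, Trim71, Arid3a and Nr6a1. They were chosen by symbol, as genes known for fetal expression and for control by the let-7 microRNAs, from the 23329 genes named in the count tables. Expression was measured by RNA-seq in primary mesenchymal cells, which form the connective tissue and muscle layers of the gut wall, grown from the small intestine of C57 mice. Embryonic day 14.5 (E14.5) gave 3 cultures and adults gave 3. No transgene or deletion is named for either group, and no test agent apart from the letters PBS in the names of all 6 tables, whose meaning is not labelled. All cultures shared a serum medium with Y27632, a kinase inhibitor, and were used at passage 2 to 3. The age of the adults is not given, and no label ties a culture to an animal or litter. The p-values therefore set the stage difference against the spread between these cultures, and may not extend to animals. Adult gut had its villi scraped away while embryonic gut was cut into pieces, and no cell sort is named.

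LIN28A and LIN28B bind the precursors of let-7 and block their maturation. Mature let-7, which accumulates as tissues differentiate, pairs through its seed with the 3′ untranslated regions (3′ UTRs) of target mRNAs and lowers their stability and translation. Its best known targets include Lin28a and Lin28b themselves, Hmga2, the Igf2bp genes, Trim71, Arid3a and Nr6a1, so the pathway forms a switch between fetal and adult states. The IGF2BP proteins bind mRNAs through KH domains and alter their stability, transport and translation. IGF2BP1 and IGF2BP3 are called oncofetal because they are abundant in many embryonic tissues and tumours and scarce in most adult tissues.

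The sequences shared by the pathway are shown first, because they define what makes a gene a candidate target. The mature mouse miRNAs below are from RefSeq (GRCm38), and capitals mark the seed, bases 2 to 8. Of 13 mature let-7 and miR-98 sequences matched there, 12 carry the same seed. These 4 are shown because they differ outside it.
let-7a-5p: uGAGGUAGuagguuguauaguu
let-7e-5p: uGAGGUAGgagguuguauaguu
let-7g-5p: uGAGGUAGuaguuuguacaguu
miR-98-5p: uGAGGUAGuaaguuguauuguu

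The match searched for was CTACCTC, the reverse complement of the seed, on the sense strand of the longest annotated 3′ UTR of each gene. CTACCTCA, the same letters followed by A, is its 8-base form. All 10 genes hold at least 1 match, against 9.0% of 20950 3′ UTRs of all lengths. The genes were chosen partly as known let-7 targets, so many matches follow from that choice. The shares given here and below describe the genes and are not a test of the set. Nr6a1 holds 8, of which 3 have the 8-base form. No gene in the annotation holds more. Igf2bp1, Lin28b, Hmga2 and Trim71 hold 4 each, Lin28a and Arid3a hold 2 each, and Igf2bp2, Igf2bp3 and Hmga1 hold 1 each. Long 3′ UTRs hold more matches by length alone, so each gene was set beside 3′ UTRs of 0.8 to 1.25 times its length. At least 4 matches occur in 0.33% of 3′ UTRs the length of that of Igf2bp1 and in 0.12% of those the length of that of Hmga2. At least 1 match occurs in 13.3% of 3′ UTRs the length of that of Igf2bp3 and in 12.1% of those the length of that of Igf2bp2. By the number of matches, then, Igf2bp3 and Igf2bp2 are ordinary for their length. In both, the match has the 8-base form, which 3.0% of 3′ UTRs of all lengths hold. The share with that form at like length was not computed. A match describes the sequence and is not a measured site.

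The sites below are in exons, in the 3′ UTRs of the genes named, in GRCm38 (mm10). Each is printed on the strand of the mRNA, with the match in capitals. All 3 sites of 8 bases in Igf2bp1 and 1 site of each other gene listed are shown, as sequence context for the values that follow.
Igf2bp1, chr11:95961778-95961799, minus strand: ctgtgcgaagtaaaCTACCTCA
Igf2bp1, chr11:95959357-95959378, minus strand: agcagtgctattaaCTACCTCA
Igf2bp1, chr11:95958763-95958784, minus strand: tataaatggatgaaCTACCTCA
Igf2bp2, chr16:22059473-22059494, minus strand: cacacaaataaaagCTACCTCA
Igf2bp3, chr6:49086787-49086808, minus strand: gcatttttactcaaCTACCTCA
Hmga2, chr10:120364224-120364245, minus strand: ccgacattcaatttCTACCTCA
Arid3a, chr10:79953896-79953917, plus strand: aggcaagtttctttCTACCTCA
Nr6a1, chr2:38727449-38727470, minus strand: gttgacaaagacaaCTACCTCA
Lin28b, chr10:45381022-45381043, minus strand: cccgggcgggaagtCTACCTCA

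Gene totals were 30430596 to 32672370 counts in the E14.5 libraries and 18850224 to 29903594 in the adult libraries. Levels are in CPM, the counts of a gene relative to a library size that was scaled by TMM and set equal for all libraries. The mesenchymal label was checked against 14 markers, which were all measured, with a summed level between 47128 and 61193 CPM in E14.5 libraries and between 37917 and 59190 CPM in adult ones. The sum is led by Acta2, Fn1 and Col1a1. Of the 14 markers, 10 had a negative log2 fold change, and 6 did so without overlap (42.9%, against 24.1% of all tested genes in either direction). An unadjusted p under 0.05 was found in 7 (50%, against 17.9%). EdgeR called 1 lower, as it did 0.838% of all tested genes. The gene called lower was Pdgfra, a growth factor receptor gene of fibroblasts. It was at 2.47, 3.85 and 4.45 CPM at E14.5 and 29.5, 81.0 and 31.7 CPM in adult libraries (log2 fold change -3.72, edgeR adjusted p = 0.0361). Markers of other cell types were also present and differed between libraries. The summed level of 19 leukocyte markers in E14.5 replicates 1 to 3 was 307, 551 and 3498 CPM, and it was 27.7 to 230 CPM in adults. That of 14 endothelial markers was 25.4 to 70.0 CPM at E14.5 and 38.3, 1968 and 453 CPM in adult replicates 1 to 3. That of 11 mesothelial markers was 197, 917 and 178 CPM at E14.5 and 743 to 1744 CPM in adults. That of 15 epithelial markers was 26.3 to 62.7 CPM at E14.5 and 10.2 to 14.5 CPM in adults, most of it from Krt20, a keratin gene, at 61.4, 47.0 and 24.4 CPM at E14.5 and 9.09 to 13.7 CPM in adults, without overlap (edgeR adjusted p = 0.0833). Epcam, a defining epithelial marker, was at 0.141 CPM or less in every library. Krt20, Epcam and Pdgfra are named here to describe the marker lists, after their values were seen. The part of these cell types in the results below was not tested. In bulk RNA, fewer cells of a type and less RNA per cell cannot be told apart.

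In this comparison 7 of the 10 genes passed the filter on low counts. Igf2bp1 and Igf2bp3 were higher in E14.5, and the other 5 did not pass the test (edgeR's quasi-likelihood test, Benjamini-Hochberg adjusted p under 0.05 over 13478 genes). All 7 had a positive log2 fold change of E14.5 over adult, as did 6937 of the 13478 tested genes. The median was 0.86, against 0.01 over all tested genes. The values of Hmga1 and Nr6a1 were near 0, and their signs changed in some alternatives. The 2 genes called, both higher, stand beside a background of 1.08% of tested genes called in either direction and 0.245% called higher. In 3 of the 7, Igf2bp1, Igf2bp2 and Igf2bp3, every E14.5 library was above every adult library, as in 12.1% of tested genes. DESeq2 called 3 members higher, adding Igf2bp2, where it called 5.14% of its tested genes higher.

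**Figure D1:**
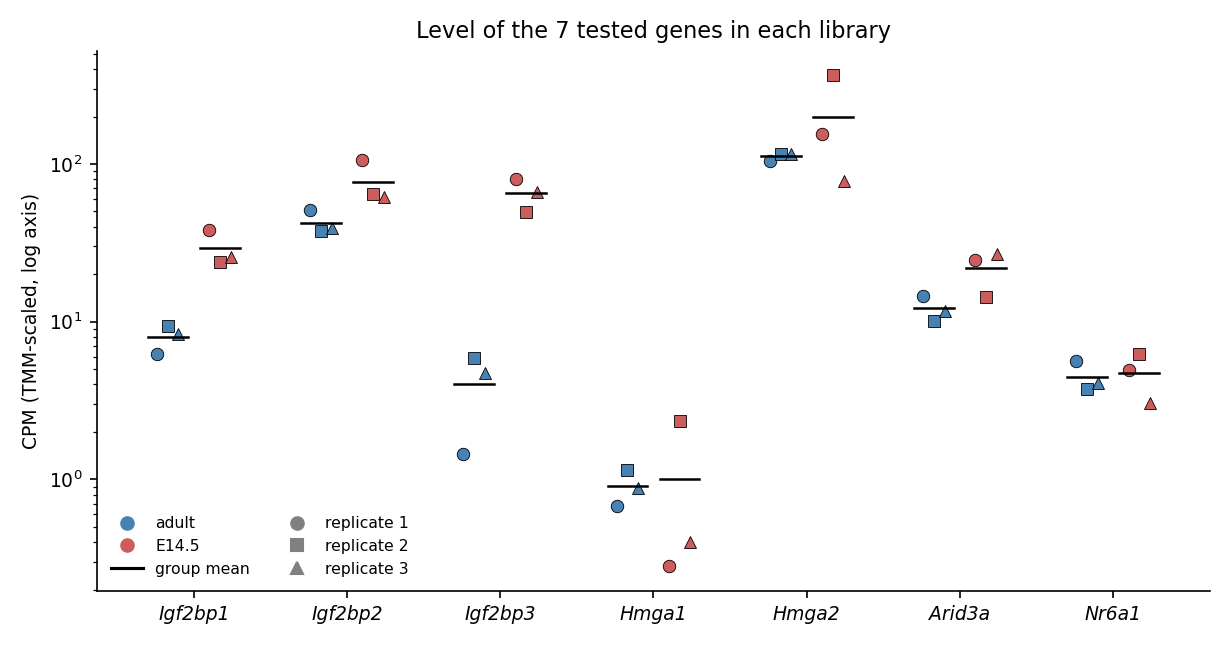
Level of the 7 measured genes in CPM, on a log axis, in each E14.5 and adult library, where each point is 1 library and the bar is the group mean. Igf2bp3 shows the widest gap between groups, at 49.5 to 80.0 CPM at E14.5 and 1.44 to 5.86 CPM in adults, and Hmga2 the widest spread within E14.5, from 78.2 to 365.2 CPM.

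Igf2bp3 (ENSMUSG00000029814.10, chr6:49085223-49214957, minus strand) encodes a member of the family known mainly from embryonic tissue and tumours. In E14.5 replicates 1, 2 and 3 its level was 80.0, 49.5 and 66.8 CPM, and in adult replicates 1, 2 and 3 it was 1.44, 5.86 and 4.75 CPM. The groups were far apart, and the lowest adult library held 38 counts. Mean levels were 65.5 ± 15.3 CPM (SD, n = 3) and 4.02 ± 2.30 CPM (SD, n = 3), and the log2 fold change was 4.03 (SE 0.53, 95% interval 2.75 to 5.31, edgeR adjusted p = 0.0361), 16.4-fold. The call was lost without E14.5 replicate 1 (adjusted p = 0.122), E14.5 replicate 3 (0.0653), adult replicate 2 (0.0687) or adult replicate 3 (0.184), while the log2 fold change stayed between 3.63 and 4.39 in all 16 alternatives.

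Igf2bp1 (ENSMUSG00000013415.9, chr11:95957163-96005940, minus strand) encodes the member known for binding the Actb and Myc mRNAs. Its level was 37.9, 23.9 and 25.6 CPM at E14.5 and 6.21, 9.44 and 8.37 CPM in adults. The lowest E14.5 library was above the highest adult library, and no library of either group was near 0. Means were 29.1 ± 7.64 CPM (SD, n = 3) and 8.0 ± 1.64 CPM (SD, n = 3), with a log2 fold change of 1.86 (SE 0.25, 95% interval 1.25 to 2.47, edgeR adjusted p = 0.0361), 3.64-fold. The call held without E14.5 replicate 2 but was lost when any other library was left out, with adjusted p = 0.112 without E14.5 replicate 1, 0.0604 without E14.5 replicate 3, and 0.0906, 0.0768 and 0.190 without adult replicates 1, 2 and 3. In limma-voom it was 0.0518. The gene passed in 8 of 16 alternatives, with a log2 fold change of 1.62 to 2.08.

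Among the adult libraries, Igf2bp3 and Igf2bp1 were both lowest in replicate 1 and highest in replicate 2. The endothelial marker sum had the same order, 38.3 CPM in replicate 1, 453 CPM in replicate 3 and 1968 CPM in replicate 2. So did the sum of 22 proliferation genes, at 553, 630 and 897 CPM in replicates 1, 3 and 2. The leukocyte sum (230, 58.3 and 27.7 CPM) and the mesothelial sum (1744, 915 and 743 CPM) had the opposite order. Igf2bp2 also had the opposite order, at 50.8, 39.1 and 37.4 CPM in replicates 1, 3 and 2. The mesenchymal marker sum had neither order. At E14.5, Igf2bp3, Igf2bp1 and the endothelial sum were highest in replicate 1, but the proliferation sum was highest in replicate 3 (997 CPM). An order over only 3 libraries is easily shared. The part of these cells or states in the Igf2bp levels was not tested.

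Igf2bp2 (ENSMUSG00000033581.17, chr16:22059009-22163299, minus strand) encodes the member that persists in adult tissues. Its level was 105.9, 64.4 and 61.5 CPM at E14.5 and 50.8, 37.4 and 39.1 CPM in adults. The groups did not overlap, but E14.5 replicate 1 stood well above the other libraries. Means were 77.3 ± 24.9 and 42.4 ± 7.29 CPM (SD, n = 3 each), with a log2 fold change of 0.86 (SE 0.25, 95% interval 0.26 to 1.47) and an edgeR adjusted p of 0.152. DESeq2 gave an adjusted p of 0.0288, the only one of the 16 alternatives in which Igf2bp2 passed.

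**Figure D2:**
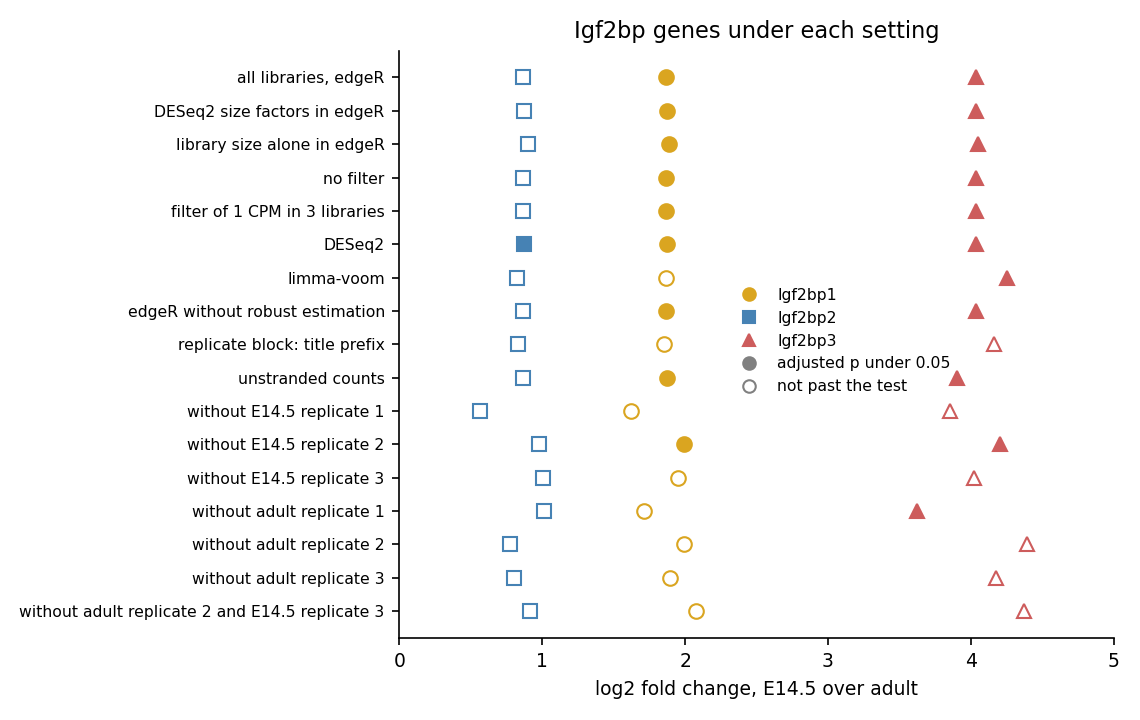
Log2 fold change of E14.5 over adult for Igf2bp1, Igf2bp2 and Igf2bp3 with all libraries and under each of 16 alternatives, with filled points where the adjusted p was under 0.05. Igf2bp3 ranged from 3.63 to 4.39, Igf2bp1 from 1.62 to 2.08 and Igf2bp2 from 0.56 to 1.01.

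To set the 3 Igf2bp genes beside each other, CPM was divided by the length of the gene's merged exons in kb. On this scale, Igf2bp2 made up 53.3%, 52.8% and 45.2% of the family's level in E14.5 replicates 1 to 3, and 92.1%, 78.9% and 82.2% in adult replicates 1 to 3. Igf2bp3 made up 37.5%, 37.8% and 45.7% in E14.5 and 2.43%, 11.5% and 9.28% in adults. Igf2bp1 took 9.07% to 9.46% in E14.5 and 5.43% to 9.61% in adults, so its share overlapped between groups although its level did not. The adult cultures thus held mainly Igf2bp2 RNA, and in E14.5 replicate 3 Igf2bp3 was level with Igf2bp2. The summed family level was 49.1, 30.2 and 33.6 CPM per kb in E14.5 and 13.6, 11.7 and 11.8 CPM per kb in adults.

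The log2 ratio of Igf2bp3 to Igf2bp2 was taken in CPM, not divided by length. It was -0.22 ± 0.30 in E14.5 and -3.62 ± 1.33 in adults (SD, n = 3 each), a difference of 3.40. The ratio of Igf2bp1 to Igf2bp2 differed by 1.02 and that of Igf2bp3 to Igf2bp1 by 2.38 on the log2 scale. In each ratio the groups did not overlap. The two-sided exact permutation p was 0.1 in each of these 3 comparisons, which is the smallest that 3 libraries against 3 allow, and 0.1 after Benjamini-Hochberg adjustment, so none can pass 0.05.

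**Figure D3:**
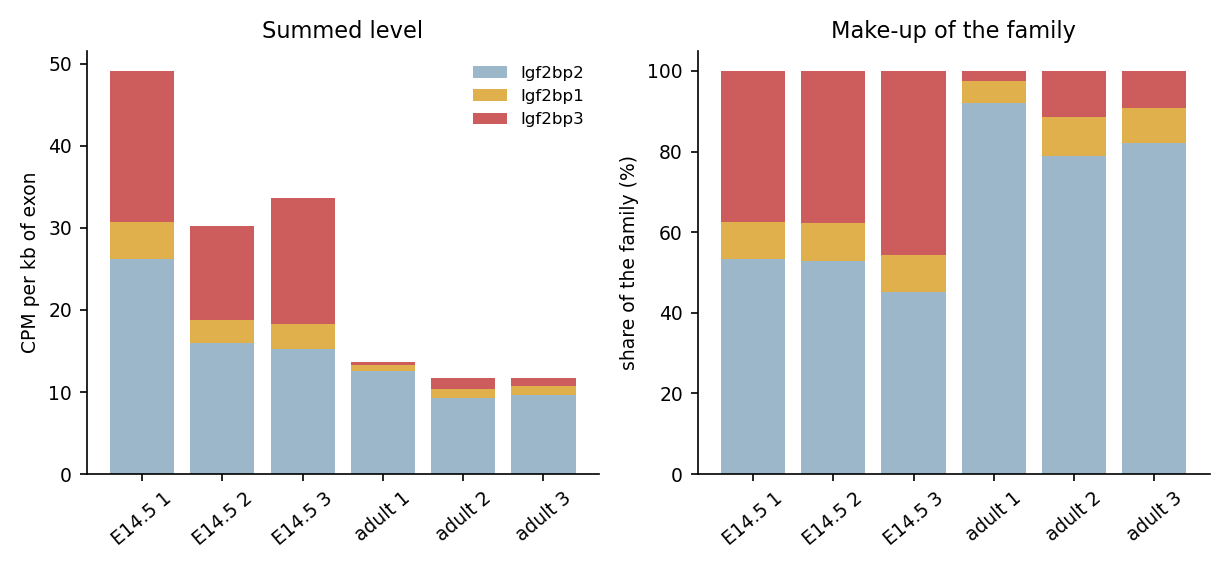
Level of Igf2bp1, Igf2bp2 and Igf2bp3 per kb of exon in each library, stacked as CPM per kb on the left and as a percentage of the family on the right. The Igf2bp3 section is 37.5% to 45.7% of the bar in E14.5 libraries and 2.43% to 11.5% in adult libraries.

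RNA of Lin28a and Lin28b, which encode the blockers of let-7 maturation, was near the limit of detection at both stages. Protein was not measured. Lin28a (chr4:134003330-134018841, minus strand) had 0, 1 and 0 counts in E14.5 and 2, 4 and 0 in adults. Lin28b (chr10:45376620-45486395, minus strand) had 1, 2 and 0 counts in E14.5 and 0 in each adult library. At these depths a count of 0 allows up to 0.092 to 0.159 CPM, counting error only. A stage difference in Lin28a or Lin28b was not detectable at this depth. Trim71 (chr9:114507133-114564369, minus strand) encodes a ubiquitin ligase that also represses mRNAs in stem cells, and it had 2, 0 and 0 counts in E14.5 and 0, 1 and 1 in adults.

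These 3 genes therefore carry 4, 4 and 2 let-7 matches (Lin28b, Trim71 and Lin28a) without measurable RNA in these cultures. Of 17 other pluripotency and germ cell genes, 2 passed the filter and 5, Pou5f1 among them, had 0 counts in all 6 libraries. Klf4, a transcription factor also common in stroma, was at 38.6 ± 27.5 CPM at E14.5 and 66.1 ± 19.6 CPM in adults (SD, n = 3 each, edgeR adjusted p = 0.511). Prdm1, a transcriptional repressor also active in immune cells, was at 0.876, 0.900 and 5.16 CPM at E14.5 and at most 0.151 CPM in adults (edgeR adjusted p = 0.117). Its highest library, E14.5 replicate 3, was also the highest for leukocyte markers, whose part was not tested.

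Hmga2 (ENSMUSG00000056758.14, chr10:120361275-120476469, minus strand) encodes an architectural chromatin protein with AT hooks and is a classic let-7 target. Its level was 154.6, 365.2 and 78.2 CPM at E14.5 and 104.3, 115.7 and 115.6 CPM in adults. The E14.5 libraries lay on both sides of the adult ones, which were close together. The log2 fold change was 0.83 (SE 0.52, 95% interval -0.43 to 2.10, edgeR adjusted p = 0.486). Leaving out E14.5 replicate 2 gave 0.06 and leaving out E14.5 replicate 3 gave 1.22, so E14.5 replicate 2 sets most of the mean difference. That library also had the highest E14.5 mesothelial marker sum, 917 CPM against 197 and 178 CPM. In adult replicates 1 to 3, where Hmga2 was at 104.3 to 115.7 CPM, the mesothelial sum was 1744, 743 and 915 CPM. The part of mesothelial cells was not tested.

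Per kb, Hmga2 was the most abundant of the 10 genes at both stages, at 52.3 ± 39.0 CPM per kb in E14.5 and 29.4 ± 1.72 CPM per kb in adults (SD, n = 3 each). It lay above 93.1% of 16343 genes in E14.5 and above 87.3% in adults. Its adult level thus kept it among the higher-expressed genes. Hmga2-ps1, an annotated pseudogene copy with which reads may be shared, had 0.782, 13.5 and 4.20 CPM at E14.5 and 0.993 to 1.58 CPM in adults. Reads assigned to it were thus few beside those of Hmga2. Reads that map to both are left out of gene counts, so these values do not show how many were shared.

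Hmga1 (ENSMUSG00000046711.16, chr17:27556497-27563674, plus strand) encodes the related AT-hook protein. Its level was 0.281, 2.33 and 0.402 CPM at E14.5 and 0.681, 1.14 and 0.879 CPM in adults. The groups overlapped, and the log2 fold change was 0.16 (SE 0.84, 95% interval -1.88 to 2.20, edgeR adjusted p = 0.953). Its sign is unsettled, being -1.38 without E14.5 replicate 2. Gene counts leave out multimapping reads, so the level of a gene with near-identical copies is uncertain and may be too low.

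Arid3a (ENSMUSG00000019564.12, chr10:79927043-79955018, plus strand) encodes a DNA-binding protein with an AT-rich interaction domain. Its level was 24.8, 14.3 and 27.0 CPM at E14.5 and 14.7, 10.1 and 11.7 CPM in adults. The groups overlapped only through E14.5 replicate 2, just below adult replicate 1. Means were 22 ± 6.8 and 12.2 ± 2.31 CPM (SD, n = 3 each), with a log2 fold change of 0.86 (SE 0.28, 95% interval 0.18 to 1.53, edgeR adjusted p = 0.185). Without E14.5 replicate 2 it was 1.09 (edgeR adjusted p = 0.0521), and no alternative brought it past the test.

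Nr6a1 (ENSMUSG00000063972.13, chr2:38723370-38927688, minus strand) encodes an orphan nuclear receptor that acts in embryonic patterning and germ cells, and it holds the most let-7 matches of the 10. Its level was 4.94, 6.21 and 3.06 CPM at E14.5 and 5.60, 3.72 and 4.08 CPM in adults. The groups overlapped fully. The log2 fold change was 0.08 (SE 0.35, 95% interval -0.77 to 0.93, edgeR adjusted p = 0.942), an interval that leaves out changes as large as the point estimate for Igf2bp1.

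**Figure D4:**
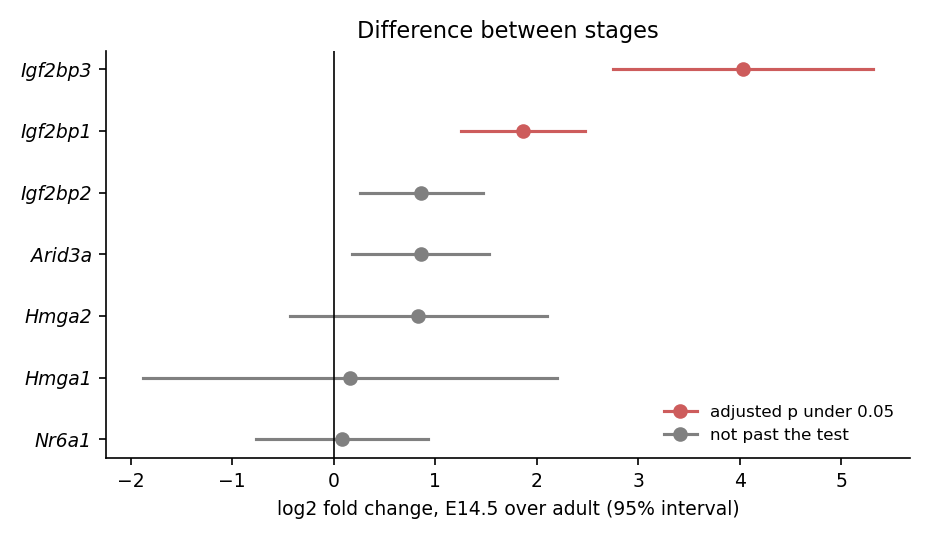
Log2 fold change of E14.5 over adult for the 7 tested genes, where bars are 95% intervals from the edgeR fit. The intervals of Igf2bp3 (2.75 to 5.31), Igf2bp1 (1.25 to 2.47), Igf2bp2 (0.26 to 1.47) and Arid3a (0.18 to 1.53) lie above 0 before adjustment, and those of Hmga2, Hmga1 and Nr6a1 span it.

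Per kb, the order in E14.5 was Hmga2, Igf2bp2 at 19.1 ± 6.15, Igf2bp3 at 15.1 ± 3.52, Arid3a at 4.07 ± 1.25, Igf2bp1 at 3.48 ± 0.912, Nr6a1 at 0.781 ± 0.261 and Hmga1 at 0.472 ± 0.540 CPM per kb (SD, n = 3). Neighbours in that order overlapped, except Igf2bp3 with Arid3a and Igf2bp1 with Nr6a1. In adults the order was Hmga2, Igf2bp2 at 10.5 ± 1.80, Arid3a at 2.24 ± 0.427, Igf2bp1 at 0.955 ± 0.196, Igf2bp3 at 0.924 ± 0.529, Nr6a1 at 0.737 ± 0.165 and Hmga1 at 0.424 ± 0.109 CPM per kb. There Igf2bp1, Igf2bp3 and Nr6a1 overlapped, and the other neighbours did not. Igf2bp3 thus moved from close to Igf2bp2 in E14.5 to close to Igf2bp1 and Nr6a1 in adults. In percentiles of 16343 genes, Igf2bp3 was above 77.8% in E14.5 and above 38.4% in adults, while Nr6a1 was above 36.3% and 36.4%.

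The libraries were made from poly(A) RNA, so mature let-7 was not measured, and the 12 rows for let-7 and miR-98 hairpins held 14 to 45 counts together in each library, and no single row more than 19. For most hairpins, among them let-7b, let-7d and let-7i, the annotated host transcript has no row in the count tables used here, so only some hosts can be described. Huwe1, a ubiquitin ligase gene that holds let-7f-2 and miR-98, was at 271 ± 17.5 CPM at E14.5 and 274 ± 13.5 CPM in adults (SD, n = 3 each, log2 fold change -0.02, edgeR adjusted p = 0.961). Wdr82, a histone methyltransferase cofactor gene that holds let-7g, was at 67.5 ± 14.0 and 62.5 ± 6.53 CPM (SD, n = 3 each, log2 fold change 0.11, edgeR adjusted p = 0.822). The 95% intervals of these log2 fold changes were -0.28 to 0.25 for Huwe1 and -0.32 to 0.55 for Wdr82.

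Another host had its higher values in adults, and it is named here after its values were seen. The row 2610203C20Rik, a RefSeq synonym of the long noncoding RNA Mir100hg, spans the let-7a-2 hairpin on chromosome 9 by its RefSeq position and had 15.4, 26.0 and 7.63 CPM at E14.5 and 56.2, 37.6 and 50.4 CPM in adults. Every adult library was above every E14.5 library. Its log2 fold change was -1.56 (SE 0.44, 95% interval -2.62 to -0.50, edgeR adjusted p = 0.145), and DESeq2 gave an adjusted p of 0.00959. GENCODE places the same hairpin in 3110039I08Rik, which RefSeq also joins to Mir100hg and which had at most 0.105 CPM in any library. Ncrna00085, the host of let-7e by RefSeq and also named outside the rule, was at 4.06 ± 1.47 CPM at E14.5 and 4.27 ± 0.657 CPM in adult libraries (log2 fold change -0.07, edgeR adjusted p = 0.947). Of the 22 hairpins and hosts listed for let-7 and its partner miR-125, 5 were tested, of which 2610203C22Rik holds no let-7 hairpin. None of the 5 passed in edgeR or limma-voom. DESeq2 called 1 (20%, against 10.6% of its tested genes), and 2 had an unadjusted p under 0.05 (40%, against 17.9%).

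Other known let-7 targets had values on both sides of 0. Of 60 listed genes 53 were tested, and edgeR called 1 lower and 0 higher, where 0.838% of all tested genes were called lower. An unadjusted p under 0.05 was found in 10 (18.9%, against 17.9% of all tested genes). DESeq2 called 6 (11.3%, against 10.6%) and limma-voom called 2 (3.77%, against 1.02%). Their median log2 fold change was 0.18, with 31 positive and 22 negative, and 10 had groups without overlap (18.9%, against 24.1% of all tested genes). The 2 most abundant were matrix genes. Thbs1, thrombospondin 1, was at 11580 ± 3879 and 16793 ± 1701 CPM (edgeR adjusted p = 0.428), and Col1a1, a chain of type I collagen, at 9496 ± 3253 and 5279 ± 1363 CPM (edgeR adjusted p = 0.271).

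The tested genes were also set beside the seed match itself, without the 10 genes. The median log2 fold change was 0.01 over 10558 genes with no match, 0.04 over 1111 with 1 match, 0.10 over 137 with 2 and -0.05 over 20 with 3 or more. Genes with a positive value were 51.2%, 53.7%, 63.5% and 45.0% of these classes. The medians do not rise steadily with the number of matches. The classes also differ in median 3′ UTR length (1102, 2277, 3550 and 4364 bases), which was not matched here. Of the 20 genes with 3 or more matches, edgeR and limma-voom called 0 and DESeq2 called 4 (20%, against 10.6%), with 9 at an unadjusted p under 0.05 (45.0%, against 17.9%), and the groups did not overlap in 11 (7 higher and 4 lower, 55.0%, against 24.1% of all tested genes). Among them, Mcf2l, a guanine nucleotide exchange factor gene picked here after its values were seen, holds 7 matches and had 0.465 to 0.494 CPM at E14.5 and 1.44 to 4.68 CPM in adults (log2 fold change -2.66, edgeR adjusted p = 0.0772). Hif1an, which encodes an inhibitor of HIF and was picked in the same way, holds 3 matches and had 74.0 to 94.8 CPM at E14.5 and 51.6 to 61.3 CPM in adults (log2 fold change 0.64, edgeR adjusted p = 0.0991).

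**Figure D5:**
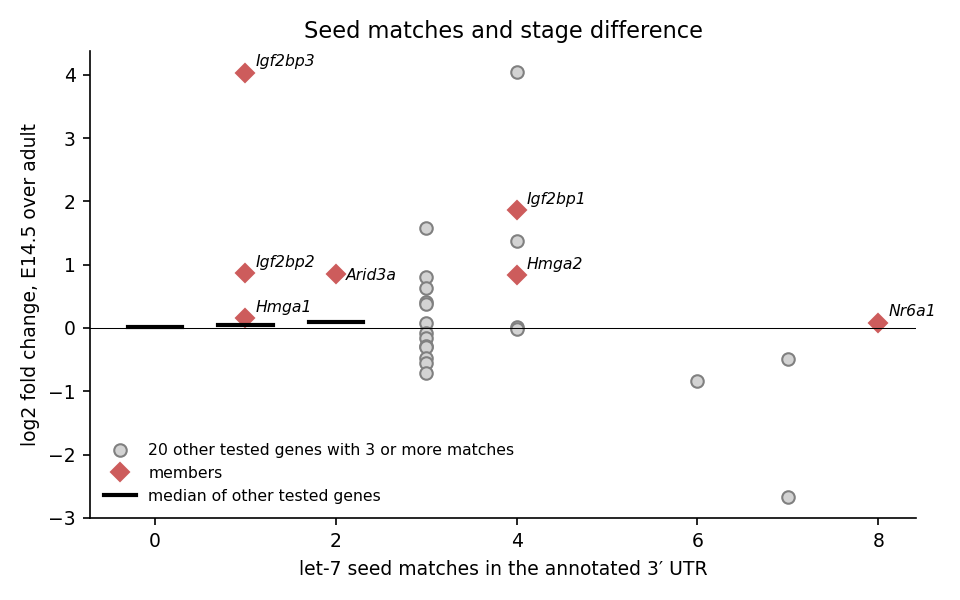
Log2 fold change of E14.5 over adult by the number of let-7 seed matches in the 3′ UTR. Diamonds are the 7 tested genes of the set, circles are the 20 other tested genes with 3 or more matches, and bars are medians of the other tested genes with 0, 1 and 2 matches (0.01, 0.04 and 0.10). Igf2bp3 with 1 match and Igf2bp1 with 4 are the highest of the set, and Nr6a1 with 8 is near 0.

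No listed gene of the machinery that makes and uses microRNAs passed the test. All 24 listed processing genes were tested. EdgeR, DESeq2 and limma-voom called 0 of them, against 1.08%, 10.6% and 1.02% of their tested genes. For edgeR and limma-voom, 0 of 24 is near that background. An unadjusted p under 0.05 was found in 1 (4.17%, against 17.9%), and the median log2 fold change was 0.02. The RNA helicases Ddx5 and Ddx17, partners of the Drosha complex, were the most abundant. Ddx5 was at 517 ± 63.0 and 618 ± 72.1 CPM (SD, n = 3 each, edgeR adjusted p = 0.460), and Ddx17 at 323 ± 116 and 305 ± 22.6 CPM (edgeR adjusted p = 0.925).

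Of 19 mRNAs known to be bound by IGF2BP proteins, 18 were tested. EdgeR and limma-voom called 0, DESeq2 called 4 (22.2%, against 10.6% of its tested genes), and 4 had an unadjusted p under 0.05 (22.2%, against 17.9%), with a median log2 fold change of 0.08. Actb, the beta-actin mRNA, was at 4021 ± 234 CPM at E14.5 and 4567 ± 872 CPM in adults (edgeR adjusted p = 0.706). Ptgs2, which encodes an inducible prostaglandin synthase, was at 804, 2822 and 165 CPM at E14.5 and 1948, 328 and 1136 CPM in adults, with wide overlap (edgeR adjusted p = 0.962). Igf2, the growth factor mRNA that names the family, was picked for that reason. It was at 614.9, 84.3 and 66.2 CPM at E14.5 and 20.3, 34.7 and 4.25 CPM in adults, with no overlap and a log2 fold change of 3.70 (edgeR adjusted p = 0.177).

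Of 16 other high-mobility-group genes, all tested, edgeR and limma-voom called 0 and DESeq2 1 (6.25%, against 10.6% of its tested genes). An unadjusted p under 0.05 was found in 2 (12.5%, against 17.9%), and the median log2 fold change was 0.07. Hmgn1, a nucleosome-binding protein gene, was at 230 ± 0.928 and 206 ± 9.06 CPM (SD, n = 3 each, edgeR adjusted p = 0.479), and Ssrp1, a histone chaperone subunit gene, at 129 ± 8.06 and 123 ± 16.3 CPM (edgeR adjusted p = 0.849). Of 22 proliferation genes, edgeR, DESeq2 and limma-voom called 0, against 1.08%, 10.6% and 1.02% of their tested genes. An unadjusted p under 0.05 was found in 0, against 17.9% of all tested genes. Their median log2 fold change was -0.19. Rrm1, a ribonucleotide reductase subunit gene, was at 232 ± 56.6 and 270 ± 24.0 CPM (edgeR adjusted p = 0.652), and Top2a, the mitotic topoisomerase gene, at 46.2 ± 40.5 and 51.4 ± 32.4 CPM (edgeR adjusted p = 0.949). The summed level of the proliferation list was 570, 380 and 997 CPM at E14.5 and 553, 897 and 630 CPM in adults, and the groups overlapped.

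The genes most like Igf2bp3, Igf2bp1 and Hmga2 across the 6 libraries were found by the root mean square difference of centred log2 CPM, over 9723 candidates with a mean of at least 5 CPM. Nearest to Igf2bp3 were Kcnk1, a potassium channel gene, at 0.441, Dsp, the desmoplakin gene, at 0.613, and Trpc4, a cation channel gene, at 0.752. Dsp was at 181, 67.1 and 74.6 CPM at E14.5 and 4.43, 8.24 and 3.97 CPM in adults. Nearest to Igf2bp1 were Clcn5, a chloride transporter gene, at 0.198, Tnfrsf21, a death receptor gene, at 0.213, and Nes, the nestin intermediate filament gene, at 0.262. Nearest to Hmga2 were Tmem202 at 0.195, Tspan9, a tetraspanin gene, at 0.202, and Gdf6, a BMP family ligand gene, at 0.212. Gdf6 was at 106, 355 and 77.7 CPM at E14.5 and 105 to 115 CPM in adults, so it shared the high value of E14.5 replicate 2. The distance is a description over 6 libraries, in which any gene with a stage difference of like size would lie near.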

How the data were processed

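The deposited values are raw counts per gene, 1 table per library, made by the authors with STAR on mm10 per the submitters' processing notes. The STAR version, annotation and counting rule were not given in the sources used here. Poly(A) libraries were stranded and read from a single end, per the labels' protocols. The reverse-strand column was used, since forward-strand counts were 1.33% to 1.69% of stranded gene counts. Counts in no gene (unmapped, multimapping, unassigned, ambiguous) took 17.45% to 19.81% and were left out.

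The 3 E14.5 and 3 adult libraries were compared in R 4.3.3 with edgeR 4.0.16 (filterByExpr, TMM, robust quasi-likelihood test, Benjamini-Hochberg threshold 0.05). The fit was run on simulated counts with the same fixed dispersion for all genes and no outlying library. That check does not cover the spread between the libraries used here. CPM was computed here on TMM-scaled library sizes. The SE is the log2 fold change over the square root of F, which is approximate. Exon lengths, gene positions and 3′ UTRs came from GENCODE M21 (GRCm38, the same assembly as mm10), and miRNAs from RefSeq. Alternatives were other scalings and filters, DESeq2 1.42.0, limma-voom (limma 3.58.1), a block, the unstranded column and libraries left out. Named genes were the 10 members, up to 3 higher and 3 lower called genes and the 2 most abundant others of each list, and the nearest genes. Marker genes, Pou5f1, host genes, Igf2, Hmga2-ps1, Mcf2l and Hif1an are named outside this rule. A few items under the rule are not reported here. The members and lists were chosen with earlier results of these data known.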

Additional observations from a re-analysis of the deposited data

How the results depend on the processing

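The test called 146 genes and 2 of the 10 genes described. Scalings, filters, non-robust estimation and the unstranded column gave 127 to 160 genes and the same 2 members. DESeq2 called 1427 genes and 3 members, and limma-voom called 1 member, without Igf2bp1. With the replicate block, the title prefix shared by 1 E14.5 and 1 adult library, 2 genes and 0 members passed. What a prefix marks is not labelled, and same-prefix libraries did not deviate together (correlations -0.141, -0.229 and -0.088). These 3 correlations cannot tell whether libraries with a prefix share anything else. Leaving out each library in turn gave 3 to 471 genes and 0 to 2 members, and leaving out adult replicate 2 with E14.5 replicate 3 gave 36 genes and 0 members. The cause of these changes was not tested, beyond the fewer samples.

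Signs changed only for log2 fold changes that had not passed. Hmga1 was -0.43 in limma-voom, -0.42 with the block and -1.38 to 0.61 with 1 library left out, and 0.73 without both E14.5 replicate 3 and adult replicate 2. With a library left out, Nr6a1 was -0.16 to 0.32, Ddx17 -0.20 to 0.33, Gdf6 -0.28 to 1.05, Top2a -1.12 to 0.48, Ptgs2 -1.23 to 0.79 and Huwe1 -0.068 to 0.032. Huwe1 was 0.024 by library size alone and 0.005 without E14.5 replicate 3 and adult replicate 2. Ptgs2 was -0.29 in limma-voom and -0.62 with the block. The cause was not tested. Adult replicate 2 had the fewest counts, 18850224.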
